A study of Mus musculus with 3 samples.

Results

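Small nuclear RNAs (snRNAs), small nucleolar RNAs (snoRNAs) and small Cajal body RNAs (scaRNAs) are short, noncoding RNAs that work in ribonucleoprotein particles, most of them in the nucleus. They were followed here in the cytosol of macrophages, where 28 genes of these types were counted well enough to describe. The 28 were selected on measured values: each had an expected count of 10 or more in every library, among 2941 genes annotated as snRNA (1383), snoRNA (1507) or scaRNA (51) and 55536 annotated genes in all. Since the counts of the gene table chose them, their levels are given as a description, and no p-value is given.

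The cells were primary macrophages of C57BL/6J mice, derived in culture from bone marrow, with no transgene or deletion in the labels, and with age and sex not collected. All of them met 100 ng/ml Lipid A, a bacterial membrane lipid recognised by the receptor TLR4, for 12 h, then had it washed out for 12 h, and met the same dose again for 90 min. RNA depleted of ribosomal RNA was then sequenced from the cytosolic fraction. The 3 libraries (replicates 1, 2 and 3) make up 1 group, so no treated cells can be set against untreated ones, and a nuclear fraction was not analysed here. The labels number the libraries as biological replicates but trace all of them to 1 donor record, so the spread between libraries may still be technical.

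In the spliceosome, the particle that removes introns, U1 snRNA pairs with the 5′ splice site, U2 snRNA pairs with the branch site, and U4 snRNA carries U6 snRNA into place. Each is bound by a ring of Sm proteins, which is put on in the cytoplasm. Newly made U1, U2 and U4 are exported, receive the ring and a trimethylated cap, and return to the nucleus. C/D box snoRNAs guide 2′-O-methylation and H/ACA box snoRNAs guide pseudouridylation of ribosomal RNA, while U3, a C/D RNA, is needed to cut the ribosomal RNA precursor. The scaRNAs carry the same boxes and guide modification of the snRNAs in Cajal bodies. Most guide RNAs of mice lie in introns of host genes and are released when the intron is spliced and trimmed.

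The members fell into unequal classes. U snRNAs gave 18 of 1383 annotated genes (10 copies of U1, 7 of U2 and 1 of U4), C/D snoRNAs 1 of 108, H/ACA snoRNAs 0 of 43, and scaRNAs 6 of 53, counted by symbol or transcript type. A further 3 of 1354 snoRNA genes have symbols that name no box class. The 28 genes held 18 distinct sequences, since 13 of them are identical to at least 1 other member.

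The U1 members are shown first because single bases decide which copy a read can be given to. Positions are counted from 1 at the 5′ end, coordinates are mm10, and sequences are from the GENCODE M21 transcripts. Rnu1a1 (ENSMUSG00000095969.1, chr11:87422867-87423030, plus strand) stands for 7 identical copies, with the stretch that pairs with the 5′ splice site and the Sm site in capitals. Gm22513 (chr12:54696782-54696945, plus strand) differs from it by T60C alone. Gm25890 (chr3:96486555-96486719, minus strand), identical to Gm22614, differs by T60C, T62C, C73T, C74G and A77G and has 1 more base. Capitals in the last 2 mark the bases that differ.
Rnu1a1: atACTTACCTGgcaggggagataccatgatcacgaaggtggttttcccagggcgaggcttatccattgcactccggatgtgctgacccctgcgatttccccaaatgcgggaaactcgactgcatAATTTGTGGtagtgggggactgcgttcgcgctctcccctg
Gm22513: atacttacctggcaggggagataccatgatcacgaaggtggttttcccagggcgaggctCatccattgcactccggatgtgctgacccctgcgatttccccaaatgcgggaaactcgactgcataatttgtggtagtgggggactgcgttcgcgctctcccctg
Gm25890: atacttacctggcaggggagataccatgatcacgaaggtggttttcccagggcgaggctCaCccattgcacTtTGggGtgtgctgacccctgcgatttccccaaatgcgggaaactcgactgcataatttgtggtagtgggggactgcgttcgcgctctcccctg

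The U2 members follow the same pattern. Rnu2-10 (ENSMUSG00000065944.1, chr11:101658238-101658428, plus strand) has 3 identical copies among the members, and its capitals mark the bases that pair with the branch site and the Sm site. The other sequences lie on chromosome 1, plus strand: Gm24497 (chr1:72244213-72244403) carries G109C and C186A, Gm25939 (chr1:72255008-72255198) T69C, C78T and G109C, and Gm25360 (chr1:72226240-72226430) C78T, A95G, G109C and C154T.
Rnu2-10: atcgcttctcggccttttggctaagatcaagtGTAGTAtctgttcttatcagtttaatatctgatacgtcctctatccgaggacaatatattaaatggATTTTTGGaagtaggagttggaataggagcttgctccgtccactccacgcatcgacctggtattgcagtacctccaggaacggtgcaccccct
Gm24497: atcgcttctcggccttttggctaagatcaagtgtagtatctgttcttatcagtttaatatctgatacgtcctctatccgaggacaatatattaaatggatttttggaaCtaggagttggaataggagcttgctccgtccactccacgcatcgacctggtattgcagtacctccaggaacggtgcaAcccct
Gm25939: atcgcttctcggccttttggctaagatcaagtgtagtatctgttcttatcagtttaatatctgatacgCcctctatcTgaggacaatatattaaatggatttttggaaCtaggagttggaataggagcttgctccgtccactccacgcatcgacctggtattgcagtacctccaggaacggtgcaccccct
Gm25360: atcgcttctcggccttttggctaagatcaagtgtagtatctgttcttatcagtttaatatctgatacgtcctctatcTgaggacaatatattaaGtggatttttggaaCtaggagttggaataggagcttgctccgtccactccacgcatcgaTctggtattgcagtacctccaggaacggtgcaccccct

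The single U4 member is Gm24265 (chr5:115489459-115489599, plus strand), the shortest gene of the 28, shown with its Sm site in capitals.
Gm24265: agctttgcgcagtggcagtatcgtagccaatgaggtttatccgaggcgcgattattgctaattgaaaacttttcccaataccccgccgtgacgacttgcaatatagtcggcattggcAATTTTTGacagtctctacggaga

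For the snoRNAs and scaRNAs, the letters searched for each class sit near the ends. The C box was searched as GATGA within the first 15 bases, the D box as CTGA within the last 10 bases, and the H/ACA tail as ACA followed by exactly 3 bases, on the transcript strand. Among all 1558 annotated snoRNA and scaRNA genes 18.0% held both GATGA and CTGA and 19.3% held the ACA. Of 98 genes with a Snord symbol 60.2% held both C/D letters, and of 42 with a Snora symbol 83.3% held the ACA, so the search misses part of either class. Both C/D letters were found in 5 of the 10 snoRNA and scaRNA members (Gm22009, Gm25395, Scarna10, Scarna6 and Gm23547) and the ACA in 2 (Scarna13 and Gm25776). Scarna2 and Rnu3a held CTGA alone and Gm23262 GATGA alone. A match describes letters only and does not show a working box.

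Gm25395 (chr1:87776938-87777209, plus strand) and Scarna6 (chr1:87784556-87784820, plus strand) are printed together because both lie in Atg16l1 and carry the same letters up to the C box and from the D box on. The most highly counted member, Gm22009 (ENSMUSG00000089417.1, chr3:69085105-69085447, minus strand), is too long to print whole, and its first 60 bases and its last 40 (304 to 343) are given. The 3 snoRNAs whose symbols name no class are Gm23547 (chr6:124715232-124715502, plus strand), Gm23262 (chr7:111076060-111076227, minus strand) and Gm25776 (chr12:91573430-91573572, minus strand). Capitals mark the matched letters.
Gm25395: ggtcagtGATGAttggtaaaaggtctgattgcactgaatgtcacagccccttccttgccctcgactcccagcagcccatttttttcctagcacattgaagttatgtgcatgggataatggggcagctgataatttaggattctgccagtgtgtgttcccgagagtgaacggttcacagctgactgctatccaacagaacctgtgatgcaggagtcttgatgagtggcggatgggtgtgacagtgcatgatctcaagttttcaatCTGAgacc
Scarna6: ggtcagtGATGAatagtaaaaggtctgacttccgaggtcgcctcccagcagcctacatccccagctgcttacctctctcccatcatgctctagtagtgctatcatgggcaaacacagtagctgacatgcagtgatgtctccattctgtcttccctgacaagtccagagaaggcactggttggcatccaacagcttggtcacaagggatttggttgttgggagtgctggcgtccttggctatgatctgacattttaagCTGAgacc
Gm22009, first bases: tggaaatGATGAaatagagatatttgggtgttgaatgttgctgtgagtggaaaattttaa
Gm22009, last bases: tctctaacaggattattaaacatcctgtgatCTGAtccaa
Gm23547: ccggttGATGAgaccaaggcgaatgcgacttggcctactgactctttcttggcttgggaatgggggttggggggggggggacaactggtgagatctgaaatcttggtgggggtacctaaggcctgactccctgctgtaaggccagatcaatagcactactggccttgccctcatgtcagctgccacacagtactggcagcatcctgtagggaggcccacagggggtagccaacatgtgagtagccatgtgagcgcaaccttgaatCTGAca
Gm23262: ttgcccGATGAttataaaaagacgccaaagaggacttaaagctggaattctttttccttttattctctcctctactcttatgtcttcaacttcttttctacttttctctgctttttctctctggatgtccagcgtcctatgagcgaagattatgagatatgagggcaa
Gm25776: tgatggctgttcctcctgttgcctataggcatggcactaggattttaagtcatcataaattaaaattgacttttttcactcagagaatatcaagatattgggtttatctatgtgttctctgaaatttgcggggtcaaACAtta

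The libraries held 40637857, 70407572 and 49678390 expected counts on annotated genes in replicates 1, 2 and 3, so the precision differs between them. An expected count is the number of fragments that the authors' program assigned to a gene, shared out where a fragment fits several genes. The 8 macrophage markers all reached 1 TPM (a level corrected for transcript length that sums to the same total in every library) in each library, here called detected, and summed to 5579 to 6172 TPM. Of 5 neutrophil markers 2 were detected, with sums of 7.72 to 12.7 TPM, and Ly6g was at 0. None of the 3 markers of each of T and NK cells, B cells and stromal cells was detected. In such bulk RNA, fewer cells of a type and less RNA per cell cannot be told apart.

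Which genes were counted went with their length. The members were 141 to 414 nt long, while the median annotated gene of these types was 108 nt and 2566 of the 2941 (87.2%) were shorter than the shortest member. The libraries were made from inserts of 250 to 400 nt, per the labels. In the gene table, 2070 genes (70.4%), the longest of 130 nt, had an effective length of 0 in every library, meaning that the program gave them no position at which a fragment could start, and 6 of these had any count. Of the 11 genes longer than 250 nt 7 were members, against 7 of 54 genes over 175 and up to 200 nt and 2 of 871 over 125 and up to 150 nt. The share did not rise evenly, since 1 of 27 genes over 200 and up to 250 nt was a member. Most C/D snoRNAs (median 86 nt), H/ACA snoRNAs (132 nt) and snRNA genes (107 nt) are shorter than any member, and their low counts here say nothing of their level in the cells.

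**Figure D1:**
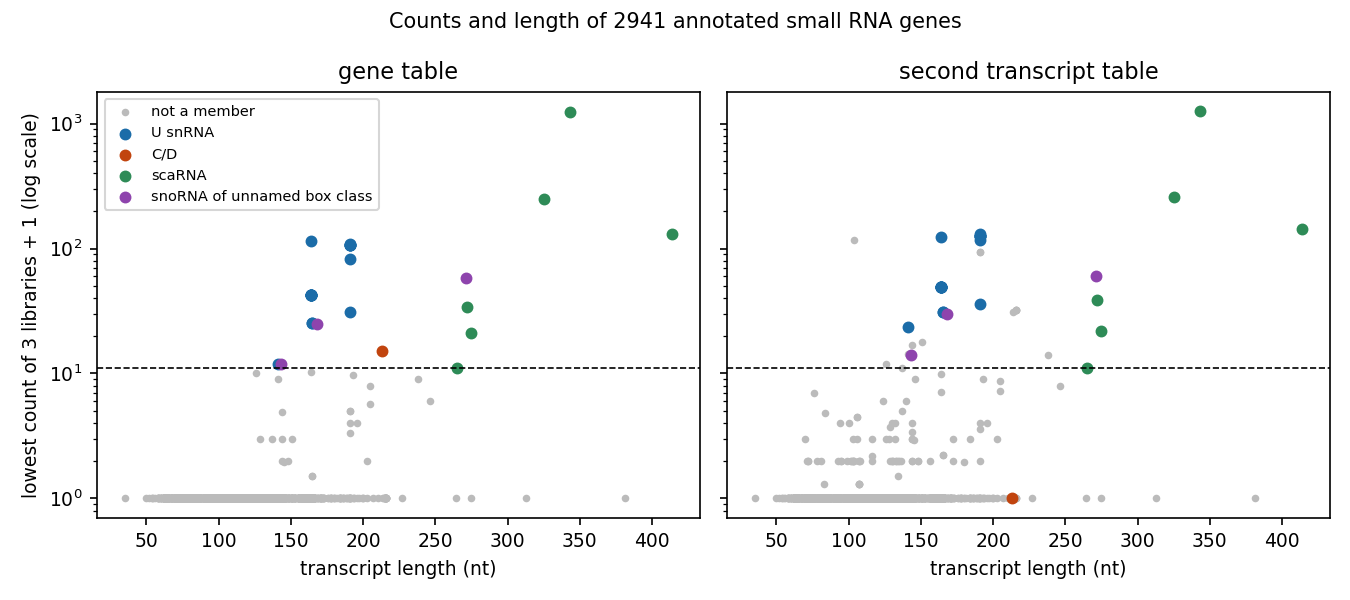
Transcript length (x axis, nt) against the lowest count of the 3 libraries plus 1 (y axis, log scale) for the 2941 annotated genes, in the gene table (left) and the second transcript table (right). Coloured points are the 28 members by class, grey points the other genes, and the dashed line is a count of 10. No gene under 141 nt reaches the line on the left, and Rnu3a falls to 0 on the right.

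At the edge of the threshold, Scarna6 (lowest count 10, 95% Poisson interval 4.80 to 18.4), Gm24265 and Gm25776 (11 each, 5.49 to 19.7) lay just inside. Just outside lay the U1 copy Gm24305 (9.21), the C/D snoRNA Snord22 (9) and the scaRNA gene Gm26083 (8.79), each with an interval of 4.12 to 17.1 for the rounded count. The intervals overlap throughout, cover counting error only, and show that membership of these 6 genes was not decided beyond counting error.

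Together the 28 genes took 2898, 8941 and 10084 counts in replicates 1, 2 and 3, or 0.00713, 0.0127 and 0.0203% of all counts. Their share of TPM was far larger, 0.280, 0.420 and 0.663%, because TPM divides by the effective length. In counts, the scaRNAs (0.00728% ± 0.00368, SD, n = 3) stood above the U snRNAs (0.00566% ± 0.00281) in each library, with 0.00415, 0.00636 and 0.0113% against 0.00272, 0.00593 and 0.00833%. In TPM the order was reversed and wide apart, with 0.395% ± 0.173 for the U snRNAs and 0.0373% ± 0.0162 for the scaRNAs. The unnamed snoRNAs took 0.0205% ± 0.00579 of TPM and the C/D member 0.00126% ± 0.000142.

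U1 was counted in 464, 1662 and 2224 fragments over its 33 annotated copies, of which the 10 members held 96.5 to 97.8%. Scaled to library size (counts scaled with TMM factors to a common library size, called CPM from here on), that was 11.9, 23.2 and 43.8 CPM. Replicate 3 stood 3.69 times above replicate 1. The 7 identical copies headed by Rnu1a1 took 59.6% ± 2.83 of the family's counts, Gm22513 25.8% ± 1.13, and the pair Gm25890 and Gm22614 12.0% ± 1.24, so the make-up of U1 by sequence varied far less between libraries than its level.

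Within U1, each of the 7 identical copies was listed at the same 41.54, 139.84 and 181.53 counts, which is their pool of 291, 979 and 1271 counts divided evenly and not a measure of any 1 locus. The deposited posterior SD, the program's own uncertainty about a count, was 24.6, 93.1 and 142.6 counts for Rnu1a1. Gm22513, set apart by 1 base, was listed at 114, 431 and 596.5 counts with a posterior SD of 0, 0 and 0.57. It lies with 5 of the 7 identical copies within the same stretch of chromosome 12. At 355, 577 and 1130 TPM it had the highest TPM listed for a single gene among the members in every library. As a sequence, the 7 copies of Rnu1a1 stood higher, at a summed 905, 1311 and 2408 TPM. Gm25890 and Gm22614 had 24.49, 106.47 and 139.74 counts each.

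U2 was counted in 810, 2551 and 2360 fragments over 14 annotated copies, or 20.7, 35.6 and 46.5 CPM. Replicate 3 stood 2.24 times above replicate 1. Rnu2-10 and its 3 identical copies took 48.8% ± 2.92 of the counts, at 105.65, 299.85 and 278.7 each. Gm25939 had 108, 436.35 and 412 counts and Gm25360 30, 96 and 60, both with a posterior SD below 1 count.

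Gm24497 was the exception among the U2 members, with 81.34, 786.62 and 380.56 counts. It is near-identical to the non-members Gm23444 and Gm23472, which carry G109C without C186A and were listed at 81.34, 4 and 189.22 counts each. The sum of the 3 genes was 244, 795 and 759 counts, and the second transcript table summed them to 302, 892 and 914. In replicate 2 the second table gave Gm24497 495 counts and the other copies 199 each. The sum is therefore steadier than its division, the 5.28-fold excess of Gm24497 in replicate 2 over replicate 1 rests on that division, and the value of each copy is uncertain.

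Which of U1 and U2 stood higher depended on the measure. U1 had 0.573, 0.652 and 0.942 times the counts of U2 in replicates 1, 2 and 3 and 1.35, 1.57 and 2.18 times its TPM in the gene table. In the second table the TPM ratio was 0.718, 0.871 and 1.21. No order of their levels in the cytosol can be given from these files.

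U4 was counted in 19, 59 and 35 fragments, of which Gm24265 held 11, 37 and 25. Gm24407, which differs by G88A and C99A, held the other 8, 22 and 10 and missed the threshold. In CPM Gm24265 stood at 0.282, 0.517 and 0.492, with replicates 2 and 3 close together. U12, the branch site snRNA of the minor spliceosome, had 2, 5 and 5 counts for Rnu12 in the gene table and was no member.

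Gm22009 had the highest count of all members, 1245, 3206 and 4244, or 31.9, 44.8 and 83.5 CPM. It made up 73.9, 71.6 and 75.4% of scaRNA member counts and 43.0, 35.9 and 42.1% of all member counts. Its posterior SD was 0 in every library. Scarna10 followed with 247, 753.88 and 795 counts (6.32, 10.5 and 15.7 CPM) and Scarna2 with 130, 399 and 460 (3.33, 5.57 and 9.06 CPM). All of these were lowest in replicate 1 and highest in replicate 3.

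The other scaRNAs had far fewer counts. Gm25395 had 33, 42 and 59 counts, Scarna13 20, 60 and 52, and Scarna6 10, 19 and 22. Per length, the levels ran from 183, 214 and 414 TPM for Gm22009 down to 3.31, 2.68 and 4.65 TPM for Scarna6. Scarna10 (42.3, 57.9 and 89.5 TPM) and Scarna2 (12.0, 17.4 and 28.7 TPM) came next, and their ranges over the libraries did not overlap each other or that of Gm22009. Gm25395 (9.96, 5.43 and 11.4 TPM) and Scarna13 (5.81, 7.49 and 9.69 TPM) overlapped.

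Among the snoRNAs with no class in their symbol, Gm23547 had 57.21, 137.27 and 183.04 counts, Gm23262 24, 93.95 and 80.87, and Gm25776 11, 12 and 21. Their levels were 17.5, 18.0 and 35.8 TPM, 64.4, 108 and 132 TPM, and 90.7, 44.3 and 103 TPM. Gm23547 thus had the most counts and the lowest TPM of the 3 in the gene table. In the second table the lowest was Gm25776 (4.60, 2.87 and 6.89 TPM, against 6.34, 8.08 and 12.2 for Gm23547), so this order turns with the quantifier. Gm25776 was the member with the lowest CPM in replicate 2, at 0.168.

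Rnu3a was the only member of the C/D class, and it was a member through 1 of 2 overlapping entries. The 213-nt entry (ENSMUSG00000106147.1, chr10:40258467-40258679, plus strand) had 14, 40 and 28 counts in the gene table and 0 in the second. The 214-nt entry (ENSMUSG00000065870.2) is the same sequence with 1 more base at its end and had 0 counts in the gene table and 30.2, 87 and 84 in the second. The sequence is printed to show how much the pair shares, with the D box letters in capitals.
Rnu3a: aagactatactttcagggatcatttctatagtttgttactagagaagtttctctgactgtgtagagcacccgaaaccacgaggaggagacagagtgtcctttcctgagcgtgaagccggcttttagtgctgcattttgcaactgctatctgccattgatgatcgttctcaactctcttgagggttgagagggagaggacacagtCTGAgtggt

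The same split ran through the Rnu3b genes, which also encode U3 and are annotated as 4 loci with a 215-nt and a 216-nt entry each. In the gene table the 215-nt entries had 18.75, 0 and 37.97 counts each and the 216-nt entries 0, 65.5 and 12.28, so that neither reached 10 in every library. Without replicate 1 the C/D class would have 6 members (adding the 216-nt entries and Snord22), and without replicate 2 it would have 5 (adding the 215-nt entries). Summed over its 10 entries, U3 had 89, 302 and 229 counts in the gene table (2.28, 4.22 and 4.51 CPM) and 155, 491 and 505 in the second. No H/ACA gene was a member, and without replicate 1 Snora73b (6.88, 15.6 and 26.5 counts) would be 1.

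**Figure D2:**
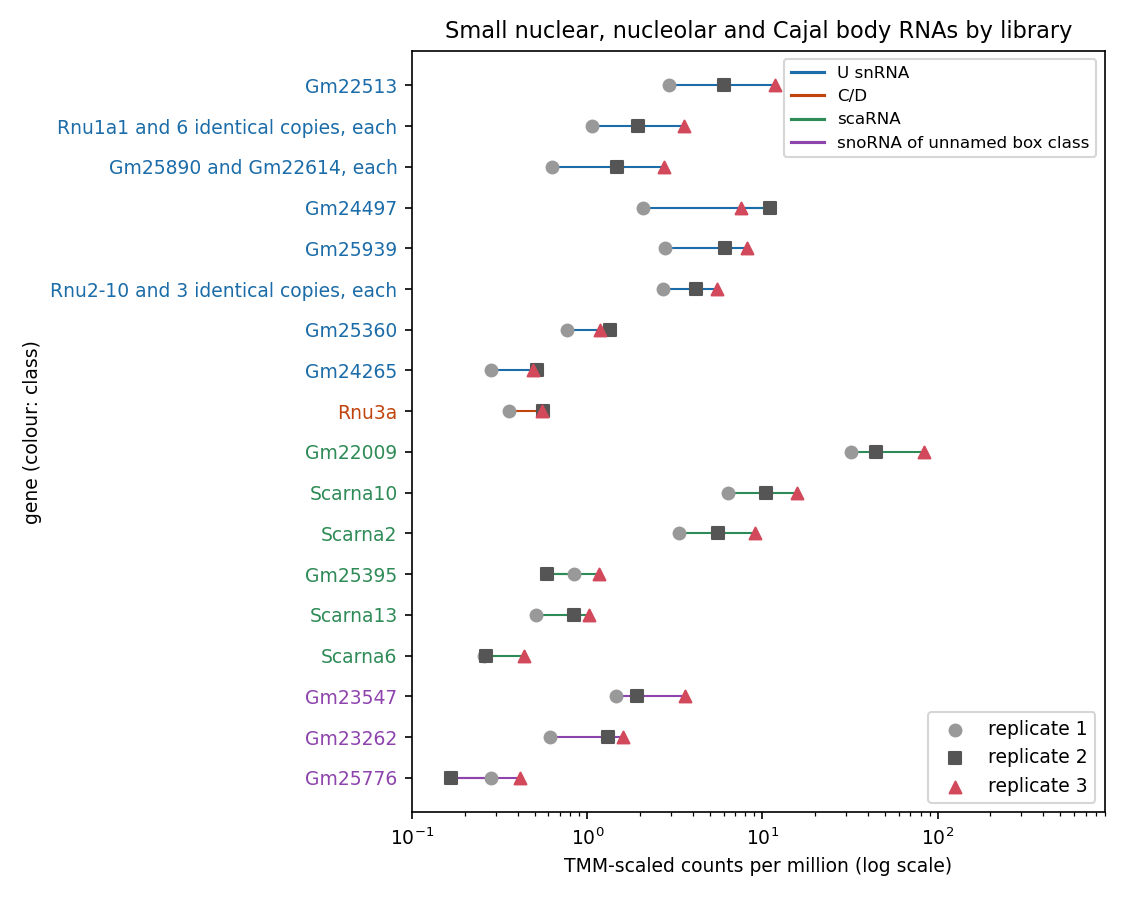
TMM-scaled CPM (x axis, log scale) of the 28 members, drawn as 18 distinct sequences (y axis, coloured by class), with 1 symbol per replicate. Replicate 1 is lowest in 16 sequences and replicate 3 highest in 14.

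The libraries differed in these RNAs in 1 direction. By CPM, replicate 3 was the highest library for 24 of the 28 members and replicate 1 the lowest for 26. Over the 18 distinct sequences these numbers were 14 and 16. How often each library was highest or lowest over all genes was not counted. The median coefficient of variation over the libraries was 48.0% for the members, with every identical copy counted. It was 11.1% for the 12283 genes with 10 or more counts in every library. Members and all genes were not matched for count, and 8 members had fewer than 30 counts in at least 1 library. The part of counting error and of read division in this contrast was not tested. Differences are given from here on as log2(CPM + 0.5), a scale that understates the change of genes with few counts.

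From replicate 1 to replicate 3, the members differed by a median of 1.28 on this log2 scale, against 0.01 over all 12283 genes. All 28 were above 0, as were 51.4% of all genes, and 16 stood 2-fold or more higher, where 0.684% of all genes did. None stood 2-fold or more lower, where 1.47% of all genes did. Since identical copies repeat each other, the count over distinct sequences is the fairer one, and it was 9 of 18. The median of 1.28 includes every copy, among them 7 of the Rnu1a1 sequence (1.38 each) and 4 of the Rnu2-10 sequence (0.90 each). It was not taken over distinct sequences, and the class counts that follow also include every copy. By class, 12 of 18 U snRNAs, 3 of 6 scaRNAs, 1 of 3 unnamed snoRNAs and 0 of 1 C/D snoRNA passed 2-fold.

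On the log2 scale the largest excess was that of a U1 variant. Gm22513 stood at 2.92, 6.02 and 11.7 CPM, and on the log2 scale replicate 3 was 1.84 above replicate 1. The plain ratio of replicate 3 to replicate 1, without the added 0.5, was 4.02 for it, 4.39 for Gm25890 and Gm22614 and 3.36 for Rnu1a1 and its copies. For the scaRNAs it was 2.72 (Scarna2), 2.62 (Gm22009), 2.48 (Scarna10), 2.00 (Scarna13), 1.69 (Scarna6) and 1.38 (Gm25395). The smallest excess on the log2 scale was 0.22, that of Gm25776.

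Replicate 2 lay in between for most members. It stood a median of 0.65 above replicate 1, against 0.03 over all genes, with 26 of 28 members and 55.0% of all genes above 0. That median is the value shared by the 7 copies of Rnu1a1, and 16 of 18 distinct sequences were above 0. The U2 copies Gm24497 (2.15) and Gm25939 (1.01) were the 2 members that stood 2-fold or more higher, where 0.423% of all genes did, and 0 stood 2-fold or more lower, where 0.798% of all genes did. Replicate 3 stood a median of 0.58 above replicate 2, against -0.02 over all genes. Above 0 were 24 of 28 members (14 of 18 distinct sequences) and 44.8% of all genes. None passed 2-fold in either direction there, where 0.285% of all genes were higher and 0.782% lower.

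**Figure D3:**
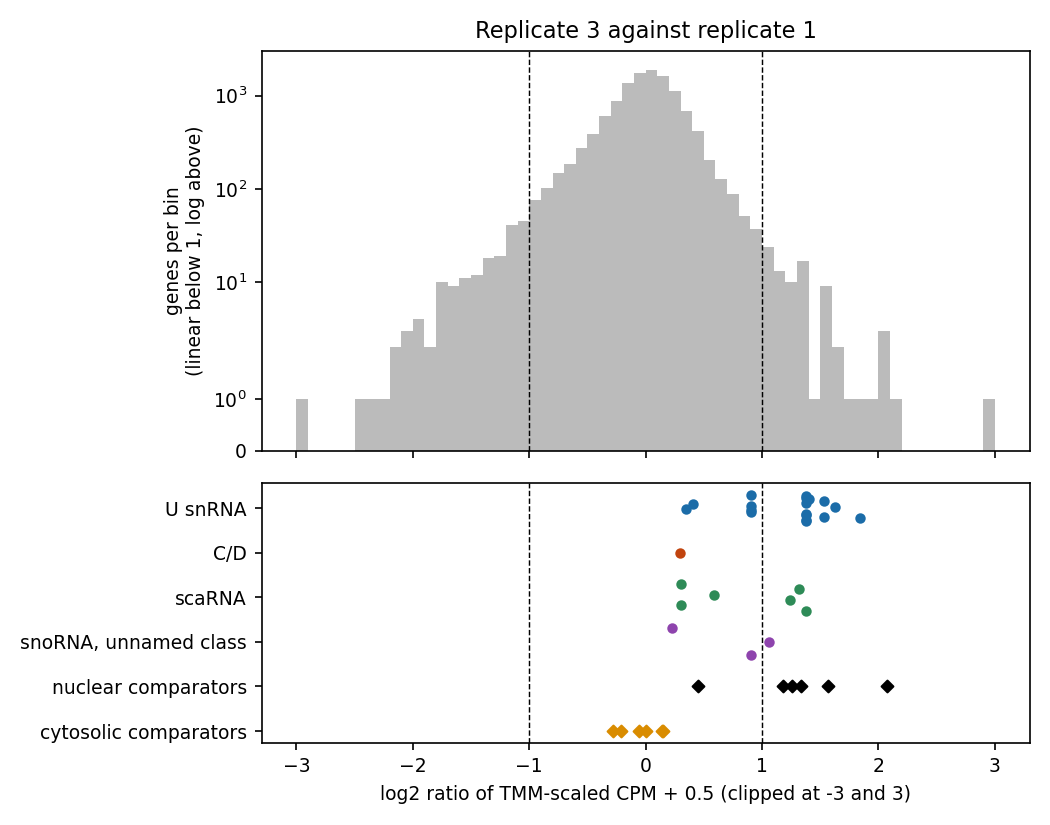
Log2 ratio of replicate 3 to replicate 1 (x axis, TMM-scaled CPM + 0.5). The upper panel counts all 12283 genes in bins (linear below 1 gene, log above), the lower panel shows each member by class and the detected comparison RNAs, and dashed lines mark 2-fold. The 28 members lie between 0.22 and 1.84.

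Other RNAs that reside in the nucleus moved the same way. Of a list of 9 such RNAs 6 were detected. In replicate 3, 5 of the 6 stood 2-fold or more higher than in replicate 1, where 0.684% of all genes did. The ratios of the 6 ran from 1.40 (Dleu2) to 4.20 (Rn7sk). Malat1, a long noncoding RNA of nuclear speckles, had 568, 640 and 1686 CPM and Neat1, the scaffold of paraspeckles, 59.7, 60.7 and 136. Rn7sk, the RNA that holds the elongation factor P-TEFb inactive, had 3337, 7231 and 14026 CPM. For Rpph1 and Rmrp, the RNAs of RNase P and RNase MRP, the ratios of replicate 3 to replicate 1 were 2.52 and 2.39.

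The 6 RNAs taken as cytosolic had ratios of 0.821 to 1.11 in the same comparison. None passed 2-fold, which is near the shares of all genes that did (0.684% higher and 1.47% lower). They were Eef1a1, B2m, Actb, Gapdh and the genes of 7SL RNA, Rn7s1 and Rn7s2. In replicate 2, Rn7sk, Rpph1 (2984, 6095 and 7517 CPM) and Rmrp (519, 699 and 1243 CPM) stood above replicate 1 as most members did, Malat1 and Neat1 lay close to it, and Dleu2 (6.32, 4.89 and 8.84 CPM) lay below it. The part of nuclear RNA in the differences between libraries was not tested.

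Both quantifiers gave the members similar counts and very different levels. The second transcript table, made directly from the reads and summed here per gene, differed from the gene table by a median of 0.11 in log2(count + 0.5) over the members, against 0.10 over all genes in both tables. In counts, 0 members stood 2-fold or more higher in the second table in every library, where 1% of all genes did. Lower stood 1, Rnu3a, where 1.61% of all genes did. Gm24265 had the largest excess among the others, 22.7, 70.9 and 63.1 counts in the second table.

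In TPM the median difference was -2.85 over the members, against -0.82 over all genes. The medians between tables include every identical copy. The second table was 2-fold or more lower in every library for 25 of 28 members, where 4.1% of all genes were, and higher for 0, where 0.342% of all genes were. The exceptions were the longest scaRNAs, Scarna2, Gm22009 and Scarna10. For Gm22513, 355, 577 and 1130 TPM in the gene table stood beside 32.1, 76.7 and 119 TPM in the second.

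Effective lengths moved with this gap. The 20 members under 200 nt had effective lengths of 1.73 to 15.3 nt in the gene table and 20.4 to 43.9 nt in the second, and their TPM was 3.80 to 19.7 times higher in the gene table. For the 7 members of 250 nt or more the effective lengths were 48.3 to 193 nt and 69.5 to 197 nt, and the TPM ratio was 1.66 to 2.99. The levels of Gm24265 and Gm25776 rest on effective lengths near 2 nt in the gene table. By the second table Gm22009 (81.9, 115 and 178 TPM) and not Gm22513 was the highest single gene in every library. Summed over identical copies, Rnu1a1 stood at 88.8, 149.6 and 246 TPM there and Rnu2-10 at 101, 162 and 175 TPM, both above Gm22009 in replicates 1 and 2, and Rnu1a1 above it in replicate 3.

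**Figure D4:**
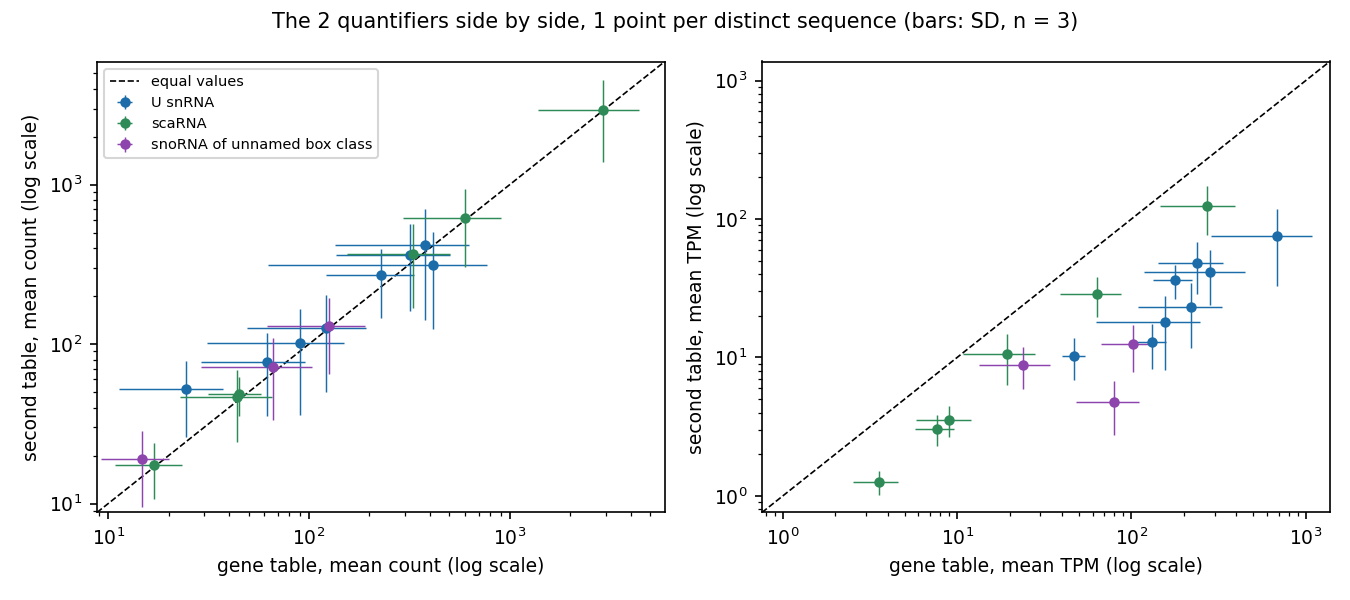
Mean count (left) and mean TPM (right) of each distinct member sequence in the gene table (x axis, log scale) and in the second table (y axis, log scale), with bars of 1 SD over 3 libraries and the line of equal values. Rnu3a, at 0 in the second table, is not drawn. Counts lie along the line and TPM below it.

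By the second quantifier 41 genes had 10 or more estimated counts in every library, of which 27 were members. The genes added there with the highest counts were the U2 copies Gm23444 and Gm23472 (93.2, 199 and 291 each), the snRNA gene Gm25047 (chrX:36363899-36364002, plus strand, 116, 169 and 131) and the 216-nt entries of the Rnu3b genes (31.2, 101 and 105 each). Gm25047 is 104 nt long, has an effective length of 0 in the gene table and 0 counts there. Among the 2941 genes it was the most highly counted in the second table with no count at all in the first.

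On the same strand, 13 of the 28 members lay within another gene: 5 of 6 scaRNAs, all 3 unnamed snoRNAs and 5 of 18 U snRNAs. Gm22009 lies in an intron of Kpna4, which encodes an importin alpha that carries proteins into the nucleus. As background, the human KPNA4 gene hosts SCARNA7, whose sequence was not compared here. Kpna4 stood at 20.4, 17.2 and 14.8 TPM, against 183, 214 and 414 for Gm22009, so the small RNA was higher in every library and the host lowest in the library where the small RNA was highest.

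Scarna10 in Ncapd2, a condensin subunit gene, showed a wider gap, with 42.3 to 89.5 TPM against 1.07, 1.28 and 0.80. Scarna13 lies in the noncoding gene Snhg10, which had 0.72, 0.42 and 0.39 TPM. Gm25395 and Scarna6 share the autophagy gene Atg16l1, at 5.56, 4.36 and 4.25 TPM, and Gm25776 lies in Gtf2a1, a subunit gene of the general transcription factor TFIIA, at 28.1, 20.0 and 19.8. Gm23262 was below its host in every library: the translation factor gene Eif4g2 stood at 169, 176 and 158 TPM. The prohibitin gene Phb2, host of Gm23547, had 23.9, 32.6 and 26.3 TPM, and which of them was higher differed between libraries.

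The second table changed some of these orders. There Gm23547 lay below Phb2 in every library (6.34, 8.08 and 12.2 against 13.9, 20.3 and 15.1 TPM), and Gm25776, above Gtf2a1 in every library of the gene table, lay below it in every library (4.60, 2.87 and 6.89 against 15.5, 14.1 and 12.0 TPM). Gm25395, above Atg16l1 in the gene table, lay below it in replicate 2 (2.54 against 2.64 TPM). Gm22009, Scarna10 and Scarna13 lay above their hosts, and Gm23262 below, in every library of both tables.

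For the 7 snoRNA and scaRNA members in protein-coding hosts, the CPM ratio of replicate 3 to replicate 1 was 1.38 to 2.62 for the small RNA and 0.781 to 1.21 for the host. The small RNA had the larger ratio in 7 of 7. These hosts are measured by their annotated transcripts in the cytosol. For small RNAs outside host exons, the pairs thus compare a product of the intron with a product of the exons. Host exons overlap 3 of the 7, as given below.

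**Figure D5:**
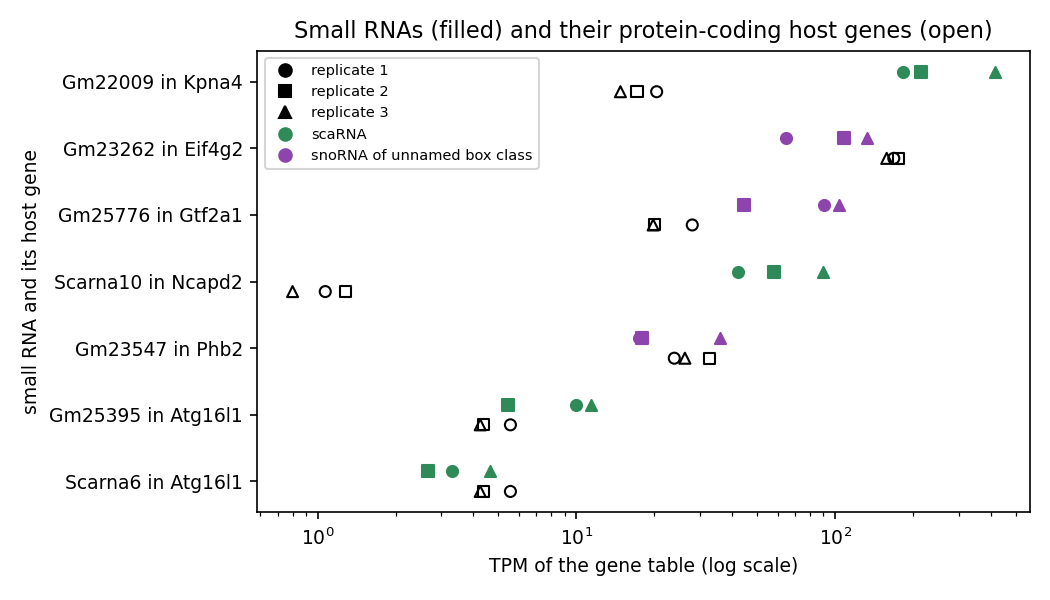
TPM of the gene table (x axis, log scale) of 7 snoRNA and scaRNA members (filled) and their protein-coding host genes (open), with 1 symbol per replicate. In all 3 libraries Gm22009, Scarna10, Gm25776 and Gm25395 lie above their hosts and Gm23262 below, by this table.

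Exons of the host overlap 3 of these RNAs: 155 of 271 nt of Gm23547 (Phb2), 150 of 168 nt of Gm23262 (Eif4g2) and 237 of 325 nt of Scarna10 (Ncapd2), and fragments there can belong to either gene. Scarna10 is also overlapped over 281 nt by the noncoding gene Gm28967, and Scarna13 over 65 nt by Mir3069, each at 0 counts in both tables. Whether counting used strand is not stated in these sources, so antisense transcripts could be included. Scarna2 has no host gene on its strand.

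Of the 5 U snRNA members within other genes, Gm25939 is the one with a sequence of its own and a sure count. It stood at 142, 241 and 335 TPM in the noncoding gene D230017M19Rik, which had no more than 0.01 TPM. Gm24497 lies in the same gene, Rnu1a1 and its copy Gm22068 in Tex14 (0.14, 0.03 and 0.12 TPM), and Gm23849 in Rdm1 (0.80, 0.63 and 0.75 TPM). Their own values are divided among copies, so none of these loci can be set against its host. U snRNA genes have promoters of their own, as textbook background.

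The proteins that act with these RNAs were read from their mRNAs, which were measured at ordinary lengths. Of a list of 74 such genes 69 were detected, where 16.7% of all annotated genes and 40.1% of protein-coding genes were. The list's median was 7.83 TPM. These levels and detection calls are those of the gene table. In the second table some genes called detected had means under 1 TPM, among them Gemin2 (0.606), Gemin6 (0.688), Coil (0.819) and Snrnp48 (0.873). How many genes the second table would call detected was not counted. None of the 74 passed 2-fold between replicates 1 and 3, which is near the shares of all genes that did (0.684% higher and 1.47% lower). The list's median log2 difference there was 0.15, against 0.01 over all genes, and its range was -0.24 to 0.68. The list is that of known proteins of these particles, and like the other gene lists it was chosen with earlier results of these data known.

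All 7 genes of the Sm ring were detected, from Snrpe (28.7 TPM ± 1.57, SD, n = 3) and Snrpb (26.7 ± 2.59) down to Snrpg (6.55 ± 0.876). The LSm ring, which binds U6, was also complete, with Lsm3 at 16.4 ± 2.49, Lsm4 at 15.5 ± 0.881 and Lsm5 lowest at 3.85 ± 0.399. U1 proteins stood at 27.1 ± 1.25 (Snrpc), 26.1 ± 0.369 (Snrnp70) and 15.7 ± 2.86 (Snrpa). Of the 8 U2 genes Sf3b2 (37.3 ± 0.914) and Sf3b1 (24.4 ± 1.14) were highest and Sf3a1 (6.48 ± 0.425) lowest. Some of these orders changed in the second table. By its means the lowest Sm gene was Snrpd2 (3.91 TPM), below Snrpg (4.28). Lsm7 (8.33) lay above Lsm4 (7.76), and Snrnp70 (15.2) above Snrpc (14.8).

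The 8 genes of the U4/U6 and U5 particles ran from Eftud2 (19.95 ± 1.26) and Prpf8 (19.6 ± 1.53) to Prpf4 (3.44 ± 0.380). In the second table Eftud2 (mean 6.99 TPM) lay below Prpf8 (10.6), Prpf31 (7.70) and Snrnp200 (7.63). The 8 genes of the minor spliceosome ran from Zcrb1 (28.1 ± 1.48) and Zrsr2 (11.9 ± 2.16) to Snrnp48 (1.54 ± 0.0700). For U7, the snRNA of histone mRNA processing, Lsm10 stood at 13.2 ± 0.339 and Lsm11 was not detected (0.400 ± 0.0900).

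The 4 core proteins of C/D particles were even, with Snu13 at 14.3 ± 1.60, Nop58 at 13.8 ± 3.03 and the methyltransferase gene Fbl at 10.4 ± 0.961. H/ACA core genes were lower and wider apart, with Nhp2 at 13.0 ± 1.96 and Nop10 at 5.09 ± 1.19. Dkc1, the pseudouridine synthase, stood at 0.77, 1.31 and 1.34 TPM and so missed detection in replicate 1.

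Among 16 genes of particle assembly and Cajal bodies 13 were detected, and Gemin4, Gemin8 and Shq1 were not. Tgs1, which trimethylates the cap, was highest (16.5 ± 2.13), followed by Gemin7 (10.6 ± 1.09), and Gemin8 was lowest (0.443 ± 0.0451). All 7 genes of snRNA transcription and 3′ end formation were detected, with Snapc5 at 15.7 ± 1.32, Ints11 at 5.56 ± 0.166 and Snapc1 lowest at 1.24 ± 0.126. In the second table Snapc4 was lowest, and its mean (0.700 TPM) and that of Snapc1 (0.748) lay under 1 TPM.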

How the data were processed

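Total RNA-seq libraries of the cytosolic fraction were read from 3 samples, grouped by the labels into 1 group with the replicate numbers given there. Per the deposited README notes, the authors used mm10 and GENCODE M21, made the gene table from reads aligned to the transcriptome, and made the second transcript table from FASTQ files without it. No program is named in these sources; the column names are those of RSEM and of kallisto. The expected counts and estimated counts are as deposited by the authors, not normalized. TPM, per the file headers, corrects for effective length and is as the authors deposited it. The effective lengths and posterior SD are also the authors' values.

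Genes were typed by the transcript type in the second transcript table, and its estimated counts and TPM were summed per gene (86 genes of the gene table are missing from it). Classes came from symbol or type. Copies of a U snRNA were grouped at an edit distance of up to 10% of length. Expected counts were rounded for TMM factors (edgeR 4.0.16, R 4.3.3), which scale the unrounded counts to CPM, and for DESeq2 1.42.0 size factors in an alternative. A pseudocount of 0.5 was used for log2 differences of CPM and of counts and 0.01 for TPM ratios between tables. The background was the genes with 10 or more counts in all 3 libraries. The functions were tested on simulated data. Intervals are exact Poisson at 95%.

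Members, gene lists and tests were chosen with earlier results of these data known. Every member of a class with up to 8 members was named. In a larger class the 8 highest by TPM, the 3 lowest, and the 3 with the largest differences between libraries and between tables were named, as were 3 genes at either side of the threshold, 5 genes high only in the second table, hosts, and the 2 highest and the lowest of each protein group. Other genes were named after their values were seen.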

Additional observations from a re-analysis of the deposited data

How the results depend on the processing

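No paired analysis was possible because the 3 libraries form 1 group. Depth limits the 8 members that had fewer than 30 counts in at least 1 library, and the division of reads among identical copies limits 13 members. Division among near-identical or overlapping entries also limits Gm24497 and Rnu3a. Their posterior SDs were 24.7 to 77.2% and 28.6 to 30.6% of the count. Over the alternatives, 137 values stayed within the spread or within 1.5 times and 39 did not, and the members' median difference between each pair of libraries kept its sign under the 6 scalings and pseudocounts tried beside the reported one. The cause was not tested unless the alternative's own construction shows it. With the threshold on the mean over libraries there were 45 members, 11 of them C/D and 2 H/ACA. The C/D class had 3 members at a threshold of 5 counts, 0 at 20 counts and 7 in the second table, and 1 to 6 when a replicate was left out. H/ACA had 1 at a threshold of 5 and 0 to 1 when a replicate was left out, with replicate 1 the one that mattered. With a mean of 0.454% of TPM in the gene table, all members took 0.0730% in the second table and 1.47% when 7SL, 7SK, RNase P and RNase MRP RNA genes left the total. In the same order, U snRNAs took 0.0532% and 1.28%, scaRNAs 0.0172% and 0.120%, unnamed snoRNAs 0.00261% and 0.0655%, and C/D 0 and 0.00402% of TPM. The single C/D member, the 213-nt entry of Rnu3a, took 4.92e-05% of counts in the gene table and 0% in the second. Counting every annotated gene of the class gave C/D 0.0120% of TPM and 0.000433% of counts in the gene table, and the unnamed snoRNAs 0.0329% of TPM. For replicate 3 against 1, 16 members past 2-fold became 9 with 1 gene per distinct sequence and 22 without a pseudocount. Both of these alternatives were chosen after seeing the data. For replicate 3 against 2, 0 became 2 with TPM, 5 with TPM rescaled over nuclear protein-coding genes and 1 without a pseudocount (chosen after seeing the data). For replicate 2 against 1, 2 became 1 with DESeq2 size factors, with TPM and with second-table counts, 5 with a pseudocount of 0.1 and 6 with none, and with TPM 1 member was 2-fold lower. Between tables, 25 members were lower by TPM where 1 was by counts, and 0 to 1 were higher when a replicate was left out (Gm24265 without replicate 2). With any gene that had a count in either table as background, 13.2% of genes were 2-fold higher in the second table.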

Other observations

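Several small RNA genes reached 10 counts in every library in the second table only. The snRNA gene Rnu12, which encodes U12 of the minor spliceosome, had 17, 29 and 52 estimated counts there against 2, 5 and 5 in the gene table, where its effective length was 2.94 to 3.53 nt. The scaRNA gene Gm22442 (144 nt) had 16, 37 and 33 against 1, 2 and 1. Gm22781, a snoRNA gene of 137 nt, had 10, 17 and 13 against 0 in every library. The C/D gene Snord17 (238 nt) differed less, with 13, 17 and 14 against 8, 15 and 8. Snord22, listed with an effective length of 0 in every library of the gene table, nevertheless had 9, 10.99 and 28.99 expected counts there and 10.9, 16.8 and 31.8 in the second table.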
